A study of Mus musculus with 12 samples.

Results

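The genes described here are 10 genes of nerve cells, taken by name from the mouse annotation: the neurofilament genes Nefl, Nefm and Nefh, the GABA synthesis genes Gad1 and Gad2, the glutamate receptor gene Grin1, the neuronal splicing factor gene Rbfox3, the tubulin gene Tubb3, and the synaptic vesicle genes Snap25 and Syt1. All 10 of them were found among the 21911 annotated genes of the comparison. ATAC-seq, which uses a transposase to tag DNA that is accessible in the nucleus, was applied to mouse B16F10 melanoma cells and mouse 4T1 mammary carcinoma cells. Cultured cells of each line received decitabine (DAC) for 48 h or no drug, and the dose was 0.1 µM for B16F10 and 1 µM for 4T1. Decitabine is a cytidine analogue that enters DNA during replication and captures DNA methyltransferases, so that methylation is lost as cells divide. Each of the 4 groups held 3 libraries of live cells, and the labels name no genetic change in any of them. The dose differed between the lines, so line and dose cannot be told apart. The labels call the libraries replicates and do not mention separate cultures. All p-values therefore refer to the spread among these libraries alone, and that spread may be technical.

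Neither line is a nerve cell, and these genes are textbook markers of neurons. Neurofilament light, medium and heavy chains (Nefl, Nefm, Nefh) assemble into the intermediate filaments of axons. The enzymes GAD67 (Gad1) and GAD65 (Gad2) make the inhibitory transmitter GABA from glutamate, and Grin1 encodes the obligatory subunit of the NMDA type of glutamate receptor. Rbfox3 encodes the splicing regulator known as NeuN, Tubb3 encodes a beta-tubulin enriched in neurons, SNAP-25 is a SNARE protein of the presynaptic membrane, and synaptotagmin 1 (Syt1) is the calcium sensor of transmitter release. In most other cells many such genes are held silent, through the repressor REST, which binds a DNA element called RE1, and at some CpG-rich promoters through DNA methylation.

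The lists hold peaks that the authors called in each library on its own, with no read counts, so the read depth behind each value is unknown beyond the labels' minimum per sample. B16F10 libraries held 49622 to 58468 peaks on the 21 assembled chromosomes, untreated 4T1 libraries 89780 to 94229, and treated 4T1 libraries 108083 to 118603. Treated 4T1 lists also reached weaker peaks: among the weakest 5% of peaks by q, the median fold enrichment was 2.53 to 2.71, against 2.95 to 3.09 in untreated 4T1 and 3.21 to 3.46 in B16F10. Over all peaks of a list the median fold enrichment was 5.60 to 6.05 in treated and 8.07 to 8.38 in untreated 4T1. In B16F10 it was 7.49 to 7.67 treated and 8.21 to 8.64 untreated. A fixed cutoff of 5-fold therefore lay nearer the median of the treated 4T1 lists than of the untreated ones. Fold enrichment, a ratio to local background, is the authors' value and here describes, ranks or filters the peaks of 1 list at a time. Its percentile is the rank of the peak's −log10 q in its own library. In untreated B16F10, 6 of 7 melanocyte markers had a promoter peak in all 3 libraries (Tyr, tyrosinase, had none in any library), and in untreated 4T1 all 8 mammary epithelial markers did. The leukocyte markers Ptprc, Cd3e and Itgam had no promoter peak in any library.

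Stretches in or beside peaks of these genes differed in their content of CpG, the dinucleotide that DNA methyltransferases act on and that is in capitals here. Shown are the bases just before the starts of Grin1 (chr2:25319188-25319437, minus strand) and Gad2 (chr2:22622077-22622204, plus strand), from the RefSeq promoter table on GRCm38, the assembly that mm10 names. With them are 200 bases of a peak before the first start of Gad1 (chr2:70552327-70552526, plus strand), read from the genome. In 4T1 all 3 of these stretches lie in or reach into regions with a peak in the treated libraries alone. The last one is 200 bases of a Gad2 intron (chr2:22661243-22661442, plus strand) with a peak in the untreated 4T1 libraries alone. The table held entries for 6 of the 10 genes. The stretches held 27, 5, 6 and 1 CpG in the order given.
Grin1 promoter: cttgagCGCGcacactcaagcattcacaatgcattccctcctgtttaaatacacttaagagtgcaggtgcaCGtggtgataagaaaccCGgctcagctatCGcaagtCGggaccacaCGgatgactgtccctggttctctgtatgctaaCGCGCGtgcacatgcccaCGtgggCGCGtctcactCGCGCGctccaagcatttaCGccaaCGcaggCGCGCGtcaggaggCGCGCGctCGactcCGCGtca
Gad2 promoter: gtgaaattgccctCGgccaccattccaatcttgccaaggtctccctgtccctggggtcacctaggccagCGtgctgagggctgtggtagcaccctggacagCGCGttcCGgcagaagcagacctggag
Gad1 region before the first start: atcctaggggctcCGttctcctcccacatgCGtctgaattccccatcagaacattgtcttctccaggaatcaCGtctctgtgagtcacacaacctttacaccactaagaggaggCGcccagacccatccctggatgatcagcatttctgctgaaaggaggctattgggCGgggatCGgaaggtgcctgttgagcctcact
Gad2 intron: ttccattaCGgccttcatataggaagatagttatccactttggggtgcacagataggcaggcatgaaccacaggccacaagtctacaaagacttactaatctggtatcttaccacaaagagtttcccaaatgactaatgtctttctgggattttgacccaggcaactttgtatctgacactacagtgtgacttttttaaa

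RE1 was searched as CAGCACC, 2 free bases and GGACAG on both strands. The following matches lie within 1000 bp of a start or, for Rbfox3, in an intron, with mismatches to the fixed letters and the free bases in lower case.
Grin1 (chr2:25319018-25319032, minus strand): CAGCACCtcGGACAG
Gad2 (chr2:22622163-22622177, plus strand): tAGCACCctGGACAG
Nefm (chr14:68125726-68125740, plus strand): CAGCACCaaGGACAG
Snap25 (chr2:136714290-136714304, plus strand): CAGCACCctGGACAG
Snap25 (chr2:136714340-136714354, plus strand): CAGCACCgcGGACAG
Rbfox3 (chr11:118584956-118584970, minus strand): CAGCACCagGGACAG

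The first comparison asked which of these promoters, within 1000 bp of any annotated transcript start, had a peak before and after DAC. In 4T1, 4 of the 10 genes, Nefl, Nefm, Gad2 and Grin1, had a peak in 3 of 3 treated and 0 of 3 untreated libraries, and none had the reverse pattern. Over all genes this pattern held for 4.42% in 4T1, or for 11.8% of the 8187 genes without a call in an untreated library. The reverse was seen for 0.361% of all genes. In B16F10 no member changed by this rule in either direction, where 0.283% of all genes gained a call this way (0.647% of those without a control call) and 0.0867% lost one. A peak present in more cells and a region more open in each cell cannot be told apart in such bulk libraries. These calls were of weak to moderate peaks: with peaks of at least 5-fold enrichment alone, none of the 4 remained and Nefh took their place, and over all genes 1.18% were then called in DAC libraries alone and 1.24% in untreated ones alone. With the same number of peaks in each 4T1 library 2 of the 4 remained, Nefm and Gad2, beside 2.39% of all genes. Peaks with a −log10 q of at least 5 left Nefl, Nefm and Gad2 (3.23% of all genes), and summits within the window left Nefl, Gad2 and Grin1 (4.33%). The part that the longer treated lists play in these calls was not tested beyond this.

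Counted by library, 5 members had a promoter peak in each untreated 4T1 library, and 9, 10 and 10 had one in the treated libraries 1, 2 and 3. Over all genes the share was 61.2% to 61.7% in untreated and 66.3% to 67.4% in treated libraries. In B16F10 the numbers were 2, 2 and 3 untreated and 2, 3 and 2 treated, beside 54.4% to 54.9% and 55.1% to 56.1% of all genes. The members held 41 distinct transcript starts, of which 12 were called in DAC libraries alone in 4T1, beside 3.14% of all starts, and 7 were called in no library. Starts of 1 gene often lie within one another's windows and are not independent.

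**Figure D1:**
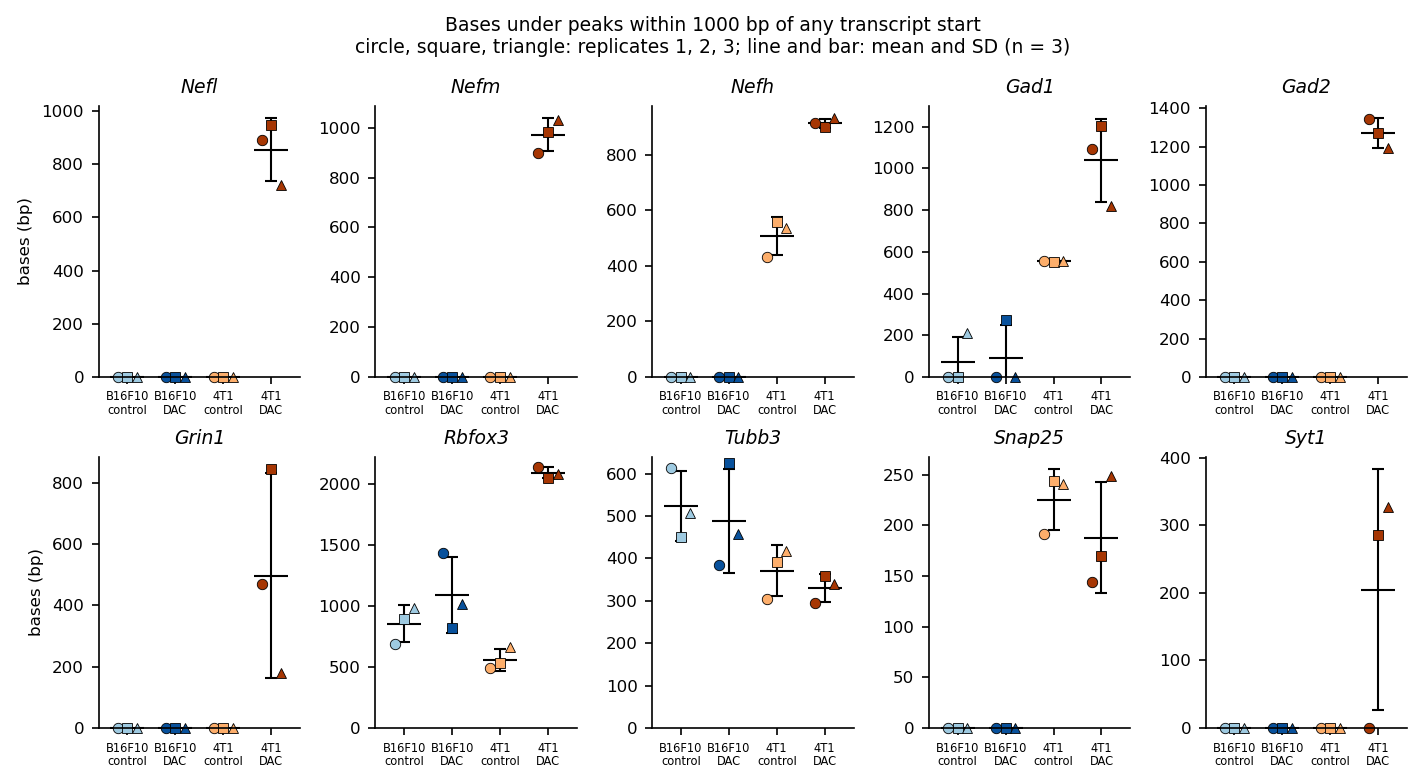
Bases under peaks (bp) within 1000 bp of any transcript start of each gene, for the 12 libraries in 4 groups; points are replicates, and the line and bar are the mean and SD (n = 3). All treated 4T1 libraries lie above all untreated ones for Nefl, Nefm, Nefh, Gad1, Gad2, Grin1 and Rbfox3, and B16F10 has no bases for 7 of the 10 genes.

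The neurofilament genes shared a pattern in 4T1. Nefl, the light chain, had 0 promoter bases under peaks in each untreated 4T1 library and 892, 948 and 722 bp in the treated libraries 1, 2 and 3. Nefm, the medium chain, had 0 bp in each untreated library and 901, 984 and 1031 bp in the treated ones. Both genes thus went from no peak in any untreated library to a peak in every treated one. Nefh, the heavy chain, had a peak before treatment, with 430, 558 and 537 bp in untreated and 912, 898 and 930 bp in treated libraries, and the groups did not overlap. All 3 genes had 0 bp in every B16F10 library.

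Within 1000 bp of the start, their peaks lay at and after it rather than before it. Before the start of Nefh, a region 1131 bp away (chr11:4949195-4949783) had a peak in 2 untreated and 3 treated 4T1 libraries. The Nefl region, chr14:68083778-68084855 in mm10, reached into the coding exon, with fold enrichments of 4.21, 3.46 and 3.66 in the treated libraries and summits 15 to 671 bp after the start. The Nefm region, chr14:68123562-68124876, also reached into the coding exon, with fold enrichments of 4.21, 4.80 and 4.78 and summits 282 to 1136 bp after the start. The Nefh promoter peak had its summit 856 to 1010 bp after the start in all 6 libraries of 4T1. Its fold enrichments were 4.68, 4.61 and 3.99 untreated and 7.28, 6.81 and 6.38 treated. Among 286 genes with 1 start that were called in DAC libraries alone in 4T1, the median summit lay 204 bp after the start, and 65.4% lay downstream. Among 1416 such genes called in all 6 libraries it lay at -31 bp, and 40.7% lay downstream. Nefl is annotated within the 42257 bp span of Nefm on the other strand, so the neighbourhoods of these genes share their peaks.

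**Figure D2:**
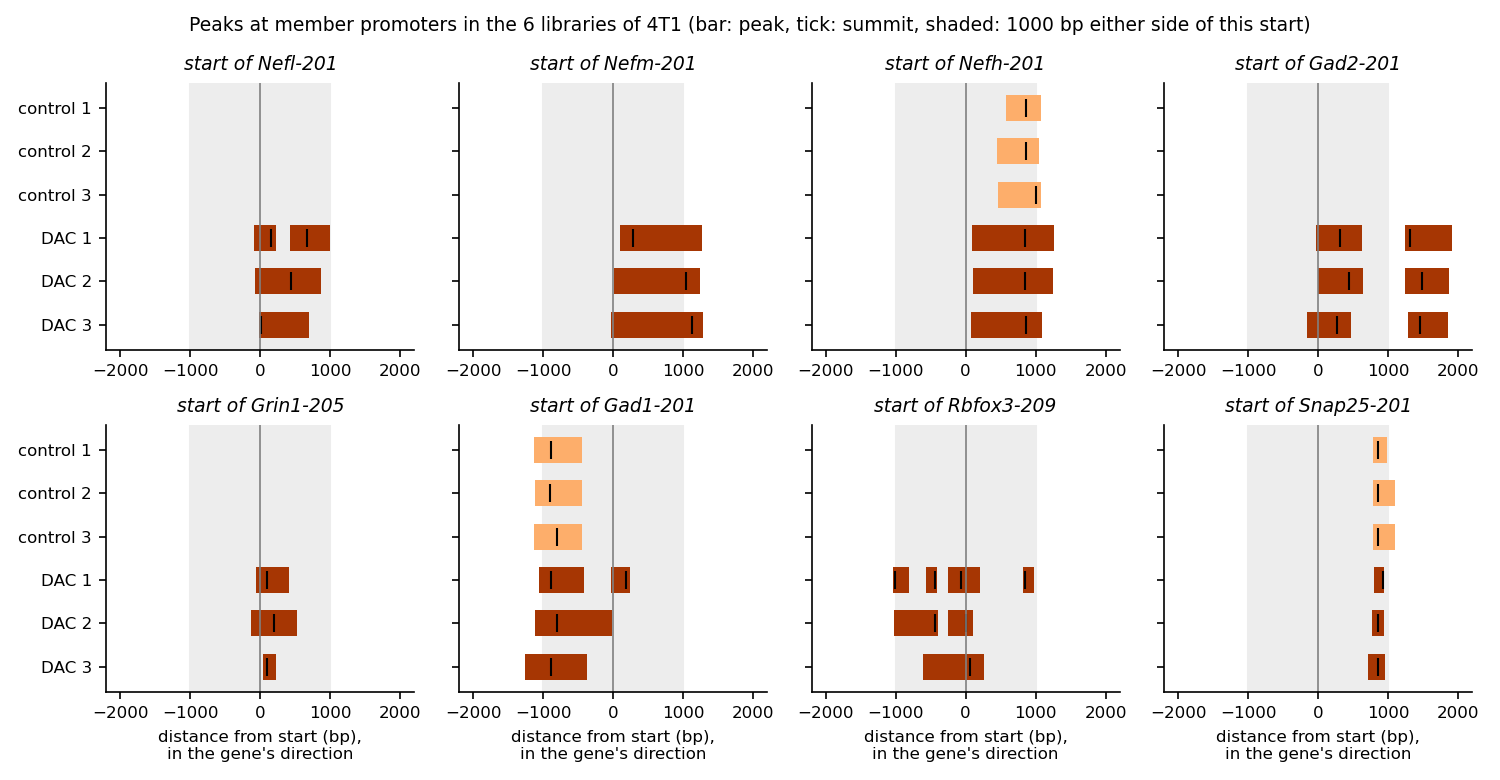
Promoter peaks of the 6 libraries of 4T1 around 8 transcript starts, by distance from the start in the gene's direction (bp). Bars are peaks, ticks are summits, and the shaded band is 1000 bp either side. Only peaks that reach into a promoter window of the gene are drawn, so empty space outside the windows does not mean that no peak was listed. At Nefl, Nefm, Gad2, Grin1 and Rbfox3-209 the untreated libraries have no peak, and at Nefh the peaks of the treated libraries are wider around the same summit.

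Both GABA synthesis genes had more promoter bases under peaks in every treated than in every untreated 4T1 library, from different levels. Gad2 had 0 bp in each untreated 4T1 library and 1345, 1272 and 1191 bp in the treated ones, more than any other member without an untreated peak. Its promoter windows covered 3100 bp, against 2001 bp for Nefl and for Nefm, 5884 bp for Syt1 and 7707 bp for Grin1. Its peaks formed 2 regions, chr2:22622046-22622843 over the first start (fold enrichment 4.47, 3.86 and 4.30) and chr2:22623446-22624124 (3.37, 3.19 and 4.30), both reaching into coding exons. Gad1 had 556, 552 and 558 bp in untreated and 1091, 1205 and 819 bp in treated libraries, and the groups did not overlap. Its peak before the main start was present in all 6 libraries of 4T1, with fold enrichments of 8.85 to 10.6 untreated and 6.60 to 8.13 treated. Part of the difference lay in the region before the first start, Gad1-204, whose sequence is shown above: chr2:70552309-70552532 lay 540 bp before that start and was called in the 3 treated 4T1 libraries alone, with fold enrichments of 3.92, 3.06 and 3.34. Gad1 would therefore be called in DAC libraries alone if only its 5′ end were read. In B16F10, Gad1 had a peak in untreated replicate 3 (211 bp) and treated replicate 2 (273 bp), and Gad2 had none.

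Grin1, the NMDA receptor subunit, had 0 bp in each untreated 4T1 library and 469, 843 and 179 bp in the treated ones. The 843 bp of treated replicate 2 included a separate peak of 191 bp (chr2:25305158-25305348, percentile 0.782) near noncoding starts, listed in that library alone. The treated values spread widely, 497 ± 333 bp (SD, n = 3), but all lay above the untreated ones. The region at its main starts, chr2:25318670-25319321, reached into the coding exon and held 11.7 CpG per 100 bp, the highest density of any region within 50 kb of a member called in DAC libraries alone in 4T1. Fold enrichments there were 5.81, 3.33 and 3.34. No B16F10 library had a peak at a Grin1 start.

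Rbfox3 (NeuN), a gene of 421836 bp, has 9 distinct starts, and different starts behaved differently. Its promoter bases in 4T1 were 489, 530 and 661 bp untreated and 2145, 2054 and 2087 bp treated, the largest difference among the members. Its promoter windows were also the longest, 13573 bp against 2001 bp for each neurofilament gene. In B16F10 its promoter bases were 690, 895 and 986 bp untreated and 1435, 820 and 1018 bp treated, and these groups overlapped. The start of Rbfox3-210 had a peak in all 12 libraries. The start of Rbfox3-209 had a peak in the 3 treated 4T1 libraries alone, with fold enrichments of 3.36, 3.12 and 3.32. At the 5′-most start, a peak was called in 3 of 3 treated and 0 of 3 untreated B16F10 libraries (region chr11:118911227-118911857, fold enrichment 4.99, 5.33 and 3.40), and in 3 treated and 1 untreated library of 4T1. The start of the noncoding transcript Rbfox3-207 had a peak in 3 untreated and 2 treated B16F10 libraries and in none of 4T1.

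For the other 3 genes the groups overlapped in both lines or had no peak to compare. Tubb3 had a peak at its start in all 12 libraries, covering 304, 391 and 418 bp in untreated 4T1 and 295, 359 and 339 bp in treated 4T1, and its B16F10 values of 613, 451 and 508 bp untreated and 384, 624 and 458 bp treated overlapped as well. Snap25 had a peak in all 6 libraries of 4T1, of 191, 244 and 241 bp untreated and 144, 170 and 249 bp treated, and in none of B16F10. Its fold enrichment was 7.79, 8.11 and 10.8 untreated and 4.79, 5.73 and 5.42 treated, values that belong to separate lists. Syt1 had no promoter peak except in treated 4T1 replicates 2 (286 bp) and 3 (327 bp), so it fell short of the rule by 1 library, and leaving out treated replicate 1 made 5 members called.

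Without treatment the lines already differed. In 4T1, Nefh, Gad1, Rbfox3, Tubb3 and Snap25 had a promoter peak in all 3 untreated libraries, where 60.4% of all genes did. In B16F10 only Rbfox3 and Tubb3 of the 10 did, where 53.3% of all genes did. By the rule of 3 against 0 untreated libraries, Nefh and Snap25 were called in 4T1 and not in B16F10, and no member the other way round. Over all genes, 7.93% were called in untreated 4T1 alone and 2.01% in untreated B16F10 alone, beside the larger number of peaks in 4T1.

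For the size of the change, an exact two-sided permutation test moved the treatment labels among the libraries of a line, in 400 arrangements whose smallest p is 0.005. Adjustment by Benjamini-Hochberg was over the 15918 genes with a promoter peak in any library. Every treated 4T1 library lay above every untreated one for 7 of the 10 members, against 16.9% of genes, and below for none, against 27.1%. The mean difference in 4T1, treated minus untreated, had a median of 490 bp over the members and -21 bp over all genes tested. Nefl, Nefm, Gad2, Grin1 and Syt1 had no promoter bases in any untreated 4T1 library and could not fall. All of these but Syt1 are the members called in DAC libraries alone. Of all annotated genes, 13238 had a peak in every untreated 4T1 library and could fall. These shares and medians thus compare genes of unlike starting state. No member passed the adjusted threshold of 0.05, and neither did any of the 15918 genes, of which 2304 had an unadjusted p under 0.05 in this exact permutation test. The lowest member values were those of Rbfox3 (mean difference over both lines 885 bp, exact permutation p = 0.02, adjusted p = 0.235) and Gad1 (252 bp, exact permutation p = 0.05, adjusted p = 0.283). Nefl, Nefm, Nefh, Gad2 and Grin1 gave an exact permutation p of 0.1 and an adjusted p of 0.283, the smallest p that genes without any B16F10 peak can reach. Snap25, Syt1 and Tubb3 gave exact permutation p-values of 0.4, 0.4 and 0.405. Within 4T1 alone an exact permutation of 3 against 3 cannot go below 0.10.

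The same arrangements served to test whether the effect differed between B16F10 and 4T1. For promoter bases the 4T1 difference exceeded that of B16F10 by 1301 bp for Rbfox3 (exact permutation p = 0.085, adjusted p = 0.305), by 1269 bp for Gad2 and by 972 bp for Nefm (both exact permutation p = 0.1, adjusted p = 0.305). No member's difference between the lines passed the adjusted threshold. Members without promoter bases in any B16F10 library cannot reach an exact permutation p below 0.1 here. They include all 4 members called in DAC libraries alone in 4T1, so for those the test cannot decide whether the lines differ. The absence of calls in B16F10 and their presence in 4T1 are therefore not shown to differ, and dose and line go together.

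The members differed widely in CpG density around the 5′ end. In the 2001 bp around the 5′ end, Nefh held 8.80, Nefm 7 and Nefl 6.95 CpG per 100 bp, which placed them at percentiles 97.8, 92.2 and 91.9 of all genes. Grin1 (4.60), Gad2 (4.35) and Tubb3 (4.10) were at percentiles 71, 67.6 and 64.3, Snap25 (3.45) and Syt1 (3.20) at 55.1 and 51.7, and Gad1 (1.45) and Rbfox3 (1.15) at 31.1 and 25.6. All genes were split into 5 equal classes by this density. Among genes without a peak in untreated 4T1, the share called in DAC libraries alone was 1.86%, 6.44%, 19.9%, 41.2% and 70.2% from the lowest to the highest class. Nefl and Nefm were the members of class 5 without an untreated peak and Gad2 and Grin1 those of class 4, and all 4 were called in DAC libraries alone. Syt1, in class 3, was not. Genes of 1 library are not independent replicates, so these shares are given without a test.

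**Figure D3:**
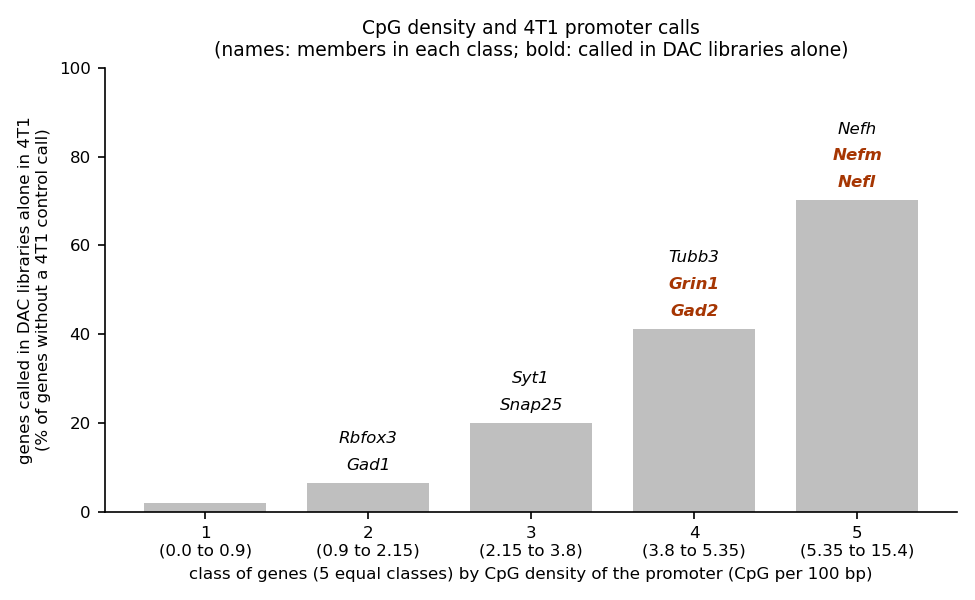
Share of genes called in DAC libraries alone in 4T1 (% of genes without a call in an untreated 4T1 library, y axis) by class of CpG density around the gene's 5′ end (x axis, 5 equal classes, range in CpG per 100 bp), with the members of each class named and those called in DAC libraries alone in bold. Other starts of a gene are not in this density. The share is 1.86% in class 1 and 70.2% in class 5, and the 4 members called lie in classes 4 and 5.

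RE1 matches were found at some of the promoters. Within 1000 bp of the 5′ end, an exact match was found at Nefm, Grin1 and Snap25, 3 of 10 members, where 0.242% of all promoters of the same length hold one, and with up to 1 mismatch also at Gad2, where 1.44% do. The matches had different places. That of Grin1 lay 77 bp after the nearest start and that of Gad2 at -42 bp, both in regions called in the 3 treated 4T1 libraries alone. The Grin1 match lay under the peak of each treated library. The Gad2 match was covered by the peak of replicate 3 alone. The peak of replicate 1 reached part of it and that of replicate 2 began after it. Those of Snap25 lay 812 and 862 bp after the nearest start, in a region with a peak in all 6 libraries of 4T1, and that of Nefm, at -880 bp, lay in no region of either line. Farther out, an exact match of Tubb3 lay 2868 bp after a start and in no region. An exact match of Gad1 lay at -2340 bp, in a 4T1 region called in 1 untreated and 0 treated libraries. Matches were placed only up to 1000 bp beyond each gene. Past that limit, a B16F10 region 1181 bp before the Nefh start (chr11:4949245-4949826) held an exact match within 100 bp of its strongest summit. It had a peak in 2 untreated and 2 treated B16F10 libraries. A match of Gad1 with 1 mismatch lay at -165 bp from its nearest start, in no region. Rest itself, the gene of the repressor that binds RE1, had a promoter peak in all 12 libraries, as did the other 11 genes of the repressor list. A match of letters is a description and not a bound site.

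An intron of Rbfox3 held 3 RE1 matches within 160 bases (chr11:118584941-118585100, minus strand, whole matches with their free bases in capitals, of which 1 is exact and 2 have 1 mismatch).
Rbfox3 intron: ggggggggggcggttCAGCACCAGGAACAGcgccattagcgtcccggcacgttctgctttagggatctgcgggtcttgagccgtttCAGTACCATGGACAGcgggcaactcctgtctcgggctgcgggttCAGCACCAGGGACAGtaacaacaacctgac
Most of this stretch was called in opposite groups in the lines: the B16F10 region covered all 3 matches and the 4T1 region 2 of them, the exact one included. In B16F10 the region chr11:118584791-118585185 had a peak in the 3 untreated libraries alone, with fold enrichments of 5.75, 6.01 and 4.64. In 4T1 the region chr11:118584903-118585045 had a peak in the 3 treated libraries alone, with fold enrichments of 3.20, 3.33 and 2.71, and its lowest percentile was 2.41, among the weakest peaks of its list. Other regions of Rbfox3 called in the treated 4T1 libraries alone held an exact match (chr11:118906612-118907052) or a match with 1 mismatch (chr11:118602753-118603569). Within 50 kb of a member, 23 regions were called in treated 4T1 libraries alone. Of these, 3 held an exact match within 100 bp of their strongest summit, where 0.0454% of all such regions did. Apart from the Grin1 region, they lay at Rbfox3. In 4T1, 1 of 87 regions called in all 6 libraries held such a match (0.0343% of all such regions), and 0 of 9 in untreated ones alone (0.0762%). In B16F10, 1 of 3 called in untreated libraries alone did (0.284%), 0 of 37 in all 6 (0.0445%) and 0 of 3 in treated ones alone (0%).

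Around the genes, from 50 kb before to 50 kb after each, peaks were merged into 205 regions in 4T1 and 84 in B16F10. In 4T1, 23 regions (11.2%) were called only in the 3 treated libraries and 9 (4.39%) only in the 3 untreated ones, shares near those of all regions, 12% and 3.57%. In B16F10, 3 regions were called in each direction, where 2.26% and 0.886% of all regions were. Rbfox3 held 5 of those 6 and Tubb3 the sixth. Nefl and Nefm had no peak of any kind within 50 kb in B16F10, against 9 to 13 per library in 4T1.

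**Figure D4:**
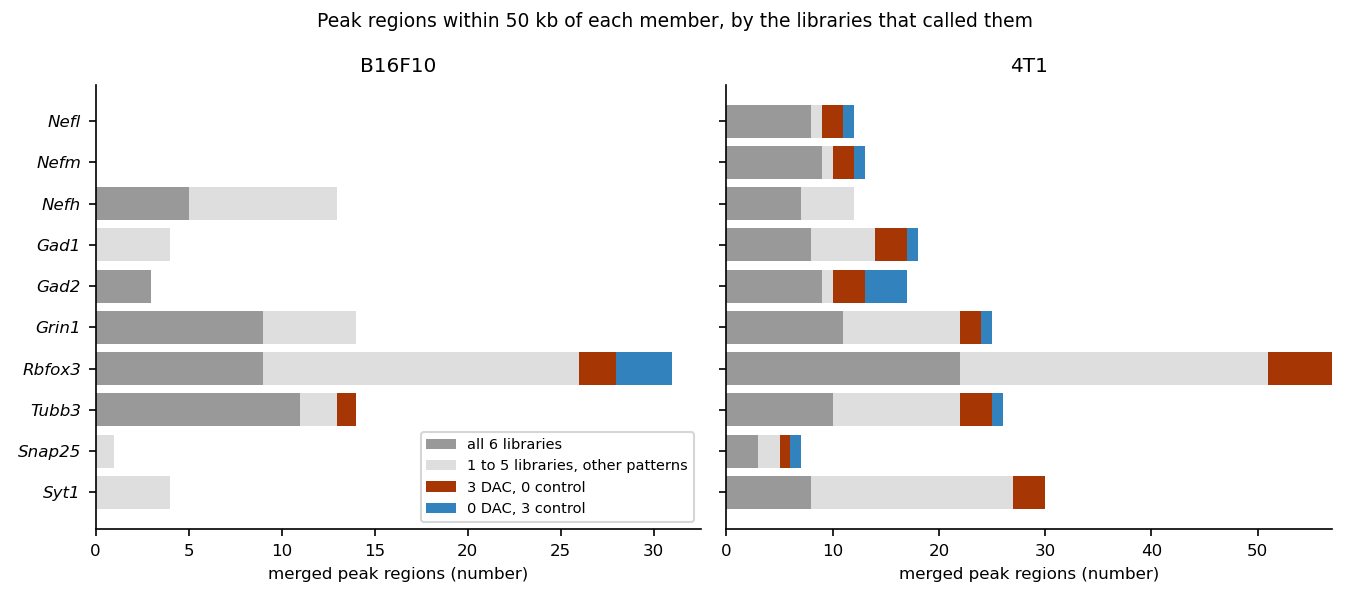
Number of merged peak regions (x axis) from 50 kb before to 50 kb after each gene, coloured by the libraries that called them, in B16F10 and 4T1. Nefl and Nefm have no region in B16F10, and Gad2 has the most regions called in untreated 4T1 libraries alone, 4.

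The regions called in each direction differed in CpG content. The 23 regions called in treated 4T1 libraries alone held a median of 3.16 CpG per 100 bp and the 9 called in untreated ones 0.699, and over all regions of these classes the medians were 3.05 and 0.912. Of the 23, 8 lay within 1000 bp of a member's start and none of the 9 did, where 10.4% and 7.24% of all regions of these classes lay within 1000 bp of a start of any gene. Mostly repeat sequence made up 4 of the 23 regions, at Gad1, Gad2, Tubb3 and Snap25, against 46.7% of all regions called in DAC libraries alone. The 23 and the 9 were taken from within 50 kb of a member and all regions from the whole genome. These shares thus have unlike bases.

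Gad2 showed both directions within 1 gene. While peaks at its start were listed in treated libraries alone, 4 regions of its introns and 3′ flank were called in the untreated 4T1 libraries alone. The strongest was the intron region chr2:22661185-22661899 (sequence above), with fold enrichments of 8.57, 6.82 and 8.18, and the others were chr2:22638230-22638569, chr2:22679989-22680370 and chr2:22697444-22697656. Introns of Snap25 (chr2:136742300-136742520, fold enrichment 7.99, 8.29 and 7.78) and Nefm (chr14:68111748-68111988, 6.24, 6.08 and 7.18) also held regions called in untreated 4T1 libraries alone.

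Bases under peaks in these neighbourhoods, with the promoter windows left out, differed in both directions. Gad2 had 8081, 7905 and 7934 bp in untreated and 6659, 6625 and 6464 bp in treated 4T1 libraries, and 2863 to 2928 bp against 2807 to 2949 bp in B16F10. The B16F10 bases came from 3 regions called in all 6 libraries. The widest of them, 1489 bp, lay 32027 bp from the nearest Gad2 start, within Myo3a or other annotated genes. Tubb3 differed the other way in 4T1, with 5624, 5269 and 5355 bp untreated and 8088, 9416 and 8655 bp treated. In 4T1 every treated library lay above every untreated one for Gad1, Nefh, Rbfox3 and Tubb3, against 37.0% of the 20738 genes tested, and below for Gad2, Grin1, Nefm and Snap25, against 17.9%. Nefl and Syt1 overlapped between the groups. No member passed the adjusted threshold in the exact permutation test over both lines. The lowest values were those of Tubb3 (mean difference 1893 bp, exact permutation p = 0.01, adjusted p = 0.104) and Gad1 (691 bp, exact permutation p = 0.015, adjusted p = 0.119). Of all genes, 0 passed and 5032 had an unadjusted p under 0.05. With peaks of at least 5-fold enrichment alone, the mean differences of Nefh, Rbfox3 and Tubb3 turned to -32.2, -1646 and -1627 bp. The median fold enrichment of whole lists was lower in treated than in untreated 4T1, and its part in these values was not tested.

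**Figure D5:**
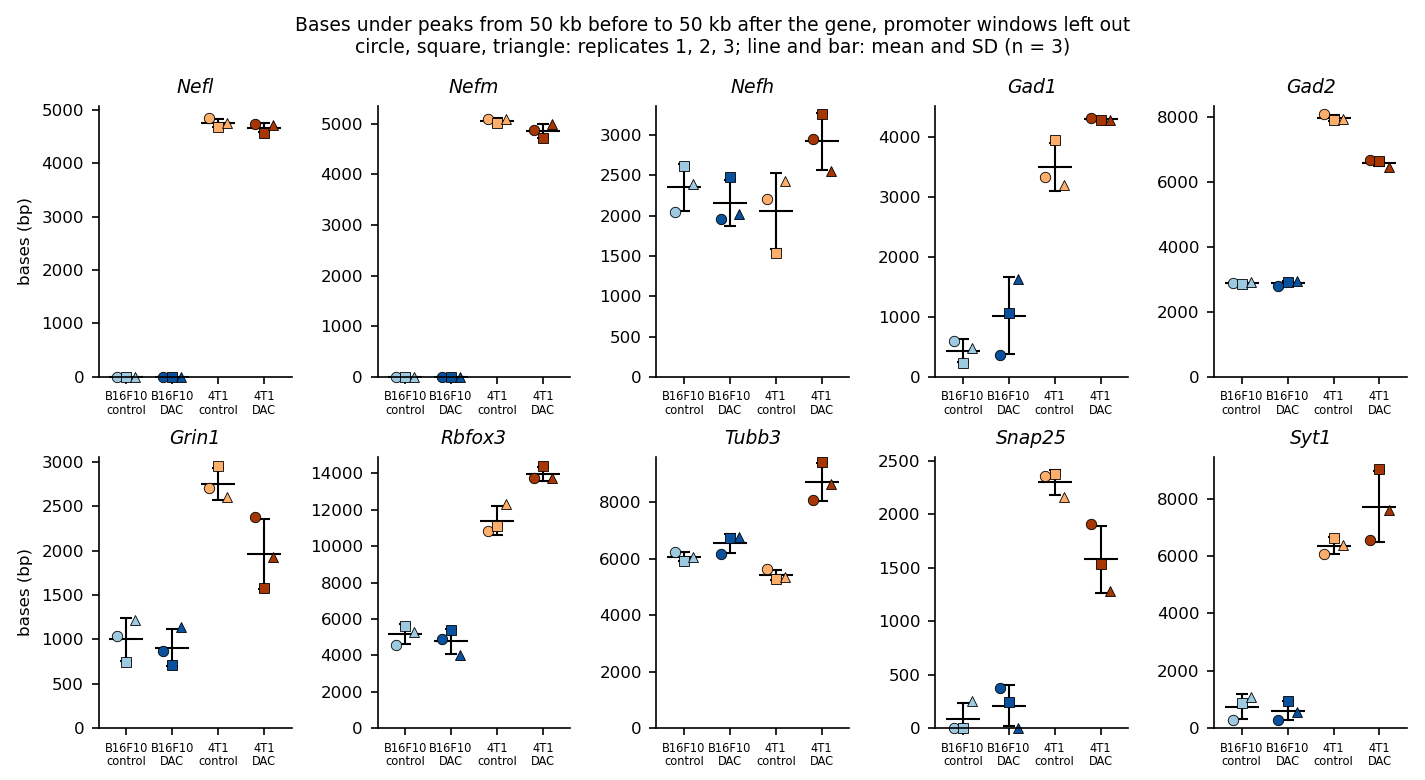
Bases under peaks (bp) from 50 kb before to 50 kb after each gene with the promoter windows left out, for the 12 libraries in 4 groups; points are replicates, and the line and bar are the mean and SD (n = 3). In 4T1 the treated libraries lie above the untreated ones for Gad1, Nefh, Rbfox3 and Tubb3 and below for Gad2, Grin1, Nefm and Snap25.

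Other genes of the same pathways were read from 7 lists with 121 genes in all. In 4T1, 15 of the 121 (12.4%) had calls in DAC libraries alone and none in untreated ones alone, beside the 4.42% and 0.361% of all genes. Of the 54 without an untreated peak these 15 were 27.8%, beside 11.8% of all such genes. In B16F10, 0 of the 121 were called in either direction. Among intermediate filaments, 1 of 7 was called in 4T1: Ina, which encodes alpha-internexin, a partner of the neurofilament chains. Prph, which encodes peripherin, had a peak in all 6 libraries of 4T1 and in 1 treated library of B16F10.

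Among GABA genes, the receptor subunit gene Gabra5 was called in DAC libraries alone in 4T1. Slc32a1, the vesicular GABA transporter gene, had a peak in 2 of 3 treated 4T1 libraries and in no other library. Among glutamate receptors and transporters, 7 of 29 were called, the most of any list. They included the receptor subunit genes Grin2a, Gria2 and Grik3 and the transporter gene Slc1a1. Slc1a1 also had a peak in 2 untreated and 2 treated B16F10 libraries.

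Of 29 synaptic vesicle and SNARE genes, 2 were called, Syt5, another synaptotagmin, and Sv2b, a vesicle glycoprotein gene. Of 14 tubulin and microtubule genes 1 was, Tubb4a, and of 10 neuronal RNA-binding protein genes 2 were, Elavl2 and Nova1. Nova1, a splicing regulator gene, had a promoter peak in all 6 B16F10 libraries. None of the 12 repressor genes was called in 1 group alone. Besides the members, 8 neuron markers were read as a set: Map2, Syn1 and Slc17a7 had a peak in all untreated 4T1 libraries and none of the 8 was called in DAC libraries alone.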

How the data were processed

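The files used were 12 peak lists, 1 per library, on mm10. MACS2, Bowtie2, Picard, FastQC, MultiQC, DiffBind and ChIPseeker appear in the submitters' processing notes with no version or role. The deposited fold enrichment (a ratio to local background), −log10 p-value, −log10 q-value, score (10 times the −log10 q-value, truncated) and summit position are the authors' values for each peak.

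Peaks on the 21 assembled chromosomes were set against GENCODE M21 (GRCm38). A promoter was 1000 bp either side of every transcript start, called by an overlap of 1 bp. DAC alone means 3 of 3 treated and 0 of 3 untreated libraries. Overlapping peaks of the 6 libraries of a line formed 1 region. Scripts ran in Python 3.11.15 with numpy 2.4.6, pandas 2.3.3 and scipy 1.17.1, and were tested on simulated data. Genes named from the lists were at most 4 per list, line and direction, by lowest percentile, with Rest, Ina, Prph and Slc32a1 in any case. An item that this rule covers is not reported here. The members and lists were chosen with earlier results of these data known. Alternatives were stricter q or fold, equal peak numbers, other windows, starts and overlaps, a replicate block and each library left out.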

Additional observations from a re-analysis of the deposited data

Results flagged for a closer look

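A difference between the lines was seen for 4 results around the genes. Within 50 kb and outside the promoters, the treated minus untreated difference in bases under peaks was larger in 4T1 than in B16F10 by 1063 bp for Nefh (exact permutation p = 0.03, adjusted p = 0.225) and by 2946 bp for Rbfox3 (exact permutation p = 0.03, adjusted p = 0.225). For Snap25 the line difference was -845 bp (exact permutation p = 0.04, adjusted p = 0.246). None of them passed the threshold after Benjamini-Hochberg adjustment over all 20738 genes, and line and dose cannot be told apart. The part of the Rbfox3 intron that holds 2 of its 3 RE1 matches had a peak in 3 untreated and 0 treated libraries of B16F10 and in 0 untreated and 3 treated libraries of 4T1, a difference in direction that was not tested.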

How the results depend on the processing

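Of the counts of members called under each alternative, 88 stayed within 1.5 times the reported count and 8 did not, and the cause was not tested. With fold enrichment of at least 5, 1 member was called in DAC libraries alone in 4T1 (Nefh, 1.18% of all genes), 1 in controls alone in B16F10 (Tubb3, 0.123%) and 3 in all untreated 4T1 libraries (57.4%). With equal peak numbers (49622 in B16F10, 89780 in 4T1) 2 were called in DAC libraries alone in 4T1 (2.39%). A window of 500 bp left 2 members called in all untreated 4T1 libraries (58.7%). With the 5′ end alone, 1 member was called in DAC libraries alone in B16F10 (Rbfox3, 0.228%), 1 in all untreated B16F10 libraries (48.5%) and 3 in all untreated 4T1 libraries (55.5%). Leaving out each library in turn gave 4 to 5 members in DAC libraries alone in 4T1 (4.46% to 5.12%). Within 50 kb, the mean difference of Nefm turned to 59.3 bp within 10 kb or the gene body alone, those of Nefh, Rbfox3 and Tubb3 to -32.2, -1646 and -1627 bp at a fold of at least 5, and that of Rbfox3 to -794 bp with equal peak numbers.

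Replicate numbers are shared by the groups, but same-numbered libraries of treated and untreated cells did not deviate together (correlations of -0.053 to 0.030). The count of members past the adjusted threshold was 0 under all 37 alternatives. With the number as a block (64 relabellings, smallest p 0.03125), 0 members passed the adjusted threshold, as without it. From that smallest p, adjusted over all genes tested, a pass was hardly possible, so this count is no sign of stability. Depth cannot be read from the lists, so a promoter without a peak is one where none was listed, not one shown to be closed.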
